A study of Actinidia chinensis with 4 samples.

Results

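The gene models described here are the most abundant transcripts of kiwifruit flesh. They were selected on their read counts: after Ach00g022471.2 had been set aside, counts were divided by the library total and multiplied by 1000000, a level relative to the whole library (CPM), and every gene model with a mean of at least 500 CPM over all 4 libraries was taken. This gave 190 of the 39761 gene models in the table. Total RNA came from fruit of the red-centred Actinidia chinensis cultivar Hongyang, grown under natural conditions and taken 90 days after anthesis. There were 2 libraries of inner pericarp, the seed-bearing flesh around the core, and 2 of outer pericarp, the flesh between it and the skin. The cultivar, the stage and the growing conditions were the same in all 4 libraries. By its title, the study concerns MYB and bHLH proteins needed for anthocyanin, the red pigment, in the inner part. Replicate numbers follow the order of deposit and pair nothing between tissues. The labels do not say whether the libraries of a tissue came from separate fruits, so a p-value here reflects only how far these samples differ, which may be technical.

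In most plant tissues a small number of genes supplies a large part of the messenger RNA, so each tissue's read counts are dominated by a few transcripts. Abundant transcripts in growing fruit usually include those for housekeeping proteins, cell wall and water transport proteins, storage and defence proteins, and proteases; in kiwifruit the cysteine protease actinidin is a well-known abundant protein. The table does not pair its identifiers with gene names or functions, so no role is given to any identifier here, and the tissue labels could not be checked against marker genes. A count share is relative: where 1 transcript takes more of a library, the others take less. In bulk tissue, fewer cells of a type and less RNA per cell cannot be told apart.

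The library totals without Ach00g022471.2 ranged from 5228147 to 5789006 counts. Ach00g022471.2, with a coding length of 708 bases, would have ranked first in 3 of the libraries. It had 0 counts in inner pericarp replicate 1, which allows up to 3, against 837018 in inner pericarp replicate 2 and 939209 and 771945 in outer pericarp replicates 1 and 2. It stands outside the selection and outside the fit.

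The 190 gene models, 0.478% of the table, took 37.6% to 41.5% of all counts in a library. Their summed share was 40.9% and 41.5% in the inner pericarp libraries and 41.1% and 37.6% in the outer ones, so the tissues overlapped. With Ach00g022471.2 counted in the totals the shares were 40.9% and 36.2% against 35.2% and 32.8%, so the tissues did not overlap. The means were then 4.54 points apart, with an SD of 3.28 (n = 2) in inner pericarp. That gene took 12.6% of inner pericarp replicate 2 and 14.2% and 12.9% of the outer libraries. It had 0 counts in inner pericarp replicate 1, whose share therefore stayed the same, so this wider gap is not read as a tissue difference. For totals without that gene, the exact 95% (Clopper-Pearson) intervals of the shares are narrow, for example 37.6% to 37.7% for the lowest library. They cover counting error only. The 2 inner pericarp libraries and outer pericarp replicate 1 lay close together, and outer pericarp replicate 2 lay below them. The mean was 41.2% ± 0.428 (SD, n = 2) in inner and 39.3% ± 2.44 (SD, n = 2) in outer pericarp, a difference of 1.83 percentage points (exact permutation test, two-sided, p = 0.667; with 2 against 2 libraries the smallest possible p is 0.333). Without outer pericarp replicate 1 the difference was 3.55 points, and without outer pericarp replicate 2 it was 0.1003 points.

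Within the group the counts were concentrated at the very top. The 10 most abundant gene models took 17.9% and 18.4% in the inner pericarp libraries against 17.8% and 14.3% in the outer ones. The mean difference for these 10 was 2.1 percentage points (exact permutation test, two-sided, p = 0.333, the smallest this design allows), and it was 3.8 points without outer pericarp replicate 1 and 0.391 points without outer pericarp replicate 2. The remaining 180 gene models held nearly the same share everywhere, at 22.9% and 23.1% in inner and 23.3% and 23.3% in outer pericarp. The first 2 gene models alone took 9.36% and 9.6% in inner pericarp against 8.5% and 6.57% in outer pericarp. Ranked within each library, 24, 23 and 24 gene models made up the first 25% of the counts in the inner pericarp libraries and outer pericarp replicate 1, and 39 were needed in outer pericarp replicate 2. The first 50% of counts took 444, 420, 449 and 587 gene models in the same order.

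**Figure D1:**
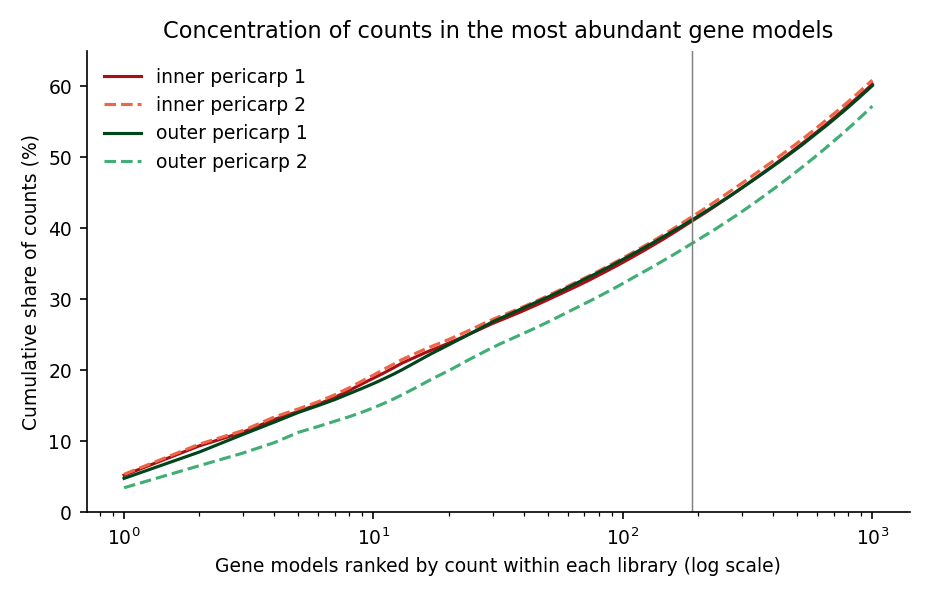
Cumulative share of counts (%) against the rank of gene models by count within each library, on a log axis, without Ach00g022471.2. Lines are single libraries and the grey line marks 190 gene models; the curve of outer pericarp replicate 2 runs below the other 3, reaching 37.9% at that rank against 41.1% to 41.7%.

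Abundance fell steeply inside the group. Of the 190, 110 had a mean of 500 to 1000 CPM, 45 of 1000 to 2000 CPM and 35 of 2000 CPM or more. The most abundant had a mean 88.5-fold above the least abundant. Just inside the threshold lay Ach13g035151.1 at 502.6 and Ach21g095791.2 at 502.5 CPM, and just outside it Ach17g325961.2 at 497.5 and Ach00g324381.2 at 497.1 CPM. All 190 passed the low-count filter of the test, with between 792 and 310833 counts in a library. In single libraries 181 and 179 (inner) and 172 and 170 (outer) of the 190 reached 500 CPM, and 154 did so in all 4. Of the 190, 10 had an inner pericarp mean under 500 CPM and 16 an outer pericarp mean under 500 CPM.

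By tissue mean, the same 4 gene models led both tissues. Ach04g305291.1 (identifier group 04, coding length 549 bases) had the most counts in both inner pericarp libraries and in outer pericarp replicate 2. It stood at 52332 and 53694 CPM in inner and 37022 and 34734 CPM in outer pericarp, and the tissues did not overlap. Its log2 fold change, inner over outer, was 0.62 ± 0.1 (SE; edgeR adjusted p = 0.000633). The call was lost without inner pericarp replicate 2 (log2 fold change 0.60) and with no low-count filter (0.63, edgeR adjusted p = 0.0754). Ach17g277251.1 (group 17, 453 bases) came second, at 41311 and 42326 CPM in inner and 47928 and 30999 CPM in outer pericarp. The outer pericarp libraries thus lay on either side of the inner ones, and its log2 fold change of 0.13 ± 0.17 (SE) was not called (edgeR adjusted p = 0.645). Ach17g051441.2 (group 17, 1239 bases) showed the same pattern, with 17865 and 19006 CPM in inner and 24920 and 14536 CPM in outer pericarp (log2 fold change -0.05 ± 0.19 SE, edgeR adjusted p = 0.892). For both of these genes the direction follows the outer pericarp library used. Against replicate 2 alone the log2 fold changes were 0.56 for Ach17g277251.1 and 0.47 for Ach17g051441.2. Against replicate 1 alone they were -0.19 and -0.43. The log2 ratio of outer pericarp replicate 1 over replicate 2 was 0.75 and 0.89 for these genes. A fit with a single outer pericarp library does not hold that spread. The fourth, Ach20g159811.2 (group 20, 1110 bases), varied least between libraries of the 4, at 19450 and 19307 CPM in inner and 17232 and 17921 CPM in outer pericarp. Its log2 fold change of 0.20 ± 0.092 (SE) was not called with all libraries (edgeR adjusted p = 0.149). It was 0.24 without outer pericarp replicate 1 and 0.17 without outer pericarp replicate 2. Without inner pericarp replicate 1 it was 0.22, and without inner pericarp replicate 2 it was 0.20.

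Of the next 6 in abundance, 4 were called higher in inner pericarp, 1 higher in outer pericarp and 1 was not called. Ach01g209011.1 (group 01, 831 bases) was at 9904 and 9830 CPM in inner and 8367 and 6217 CPM in outer pericarp, with a log2 fold change of 0.49 ± 0.14 (SE; edgeR adjusted p = 0.0232). Ach00g278791.2 (group 00, 1365 bases) was at 9329 and 9574 against 7333 and 5817 CPM, with a log2 fold change of 0.58 ± 0.13 (SE; edgeR adjusted p = 0.00521). Both genes were higher in each inner pericarp library, but neither was called without inner pericarp replicate 1 (edgeR adjusted p = 0.17 and 0.0702) or without inner pericarp replicate 2 (0.184 and 0.104), where the spread comes from the outer pericarp pair alone. The calls were also lost with the inner libraries summed (edgeR adjusted p = 0.159 and 0.0739) and with no low-count filter (0.296 and 0.192), and that of Ach01g209011.1 under DESeq2 (adjusted p = 0.328). Their log2 fold change also ran from 0.24 to 0.79 for Ach01g209011.1, and from 0.37 to 0.83 for Ach00g278791.2, over all fits. Those extremes came from leaving out outer pericarp replicate 2 and replicate 1, respectively. Ach02g036401.2 (group 02, 1821 bases) was at 9641 and 9838 CPM in inner and 6187 and 6131 CPM in outer pericarp. In these CPM the outer pericarp libraries were as close as the inner ones. With the scaling factors of the fit (TMM) the log2 ratio of replicate 1 over replicate 2 was 0.13 in the outer and -0.05 in the inner pair. The log2 fold change of 0.72 ± 0.095 (SE; edgeR adjusted p = 0.000112) stayed called in every fit.

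Ach07g391601.2 (group 07, 1143 bases) stood at 9996 and 10040 CPM in inner against 5256 and 5005 CPM in outer pericarp, 2.04-fold apart (log2 fold change 1.03 ± 0.098 SE, edgeR adjusted p = 6.27e-06). Ach07g340321.2 (group 07, 1467 bases) was at 7075 and 6847 CPM in inner and 9613 and 7446 CPM in outer pericarp. Its log2 fold change of -0.24 ± 0.13 (SE) was not called (edgeR adjusted p = 0.232). It too follows the outer pericarp library used: -0.46 without replicate 2 and 0.03 without replicate 1. Ach00g326791.1 (group 00, 615 bases) was the exception among the first 10, with 2387 and 3152 CPM in inner and 13684 and 14601 CPM in outer pericarp. It ranked 29 and 21 in the inner pericarp libraries and 5 and 4 in the outer ones. This is a log2 fold change of -2.29 ± 0.13 (SE; edgeR adjusted p = 2.75e-08). Of the first 10, 5 were therefore called toward inner pericarp and 1 toward outer pericarp, and 4 were not called. Of all gene models tested, 8.56% were called higher in inner and 9.36% higher in outer pericarp. High counts give the test more power, so nothing is read from these numbers of calls.

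**Figure D2:**
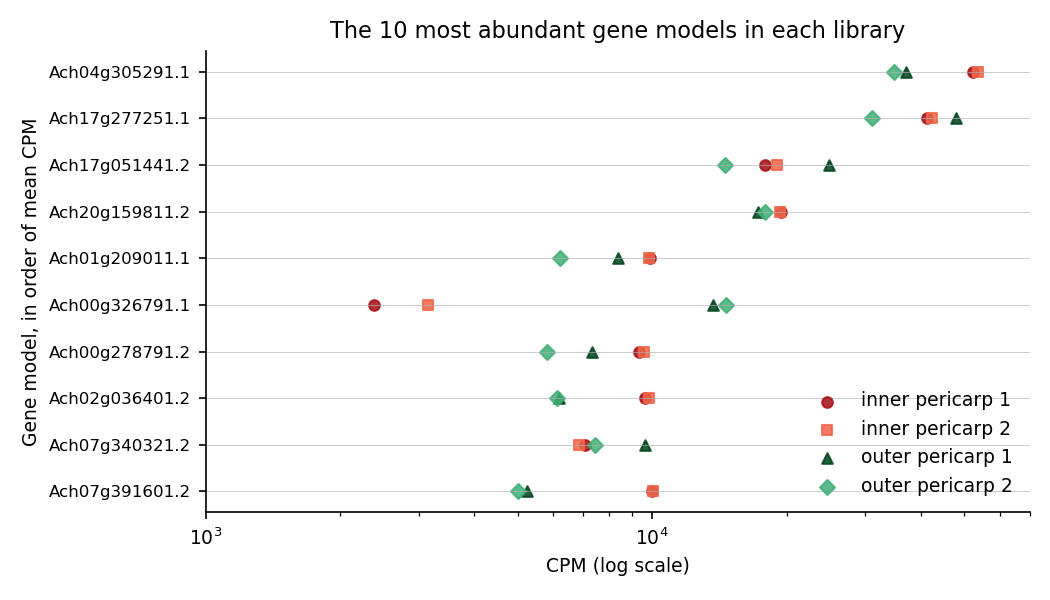
CPM (log axis) of the 10 most abundant gene models, in order of mean CPM, with 1 point for each library. The inner pericarp points nearly coincide for 9 of the 10, and the points of Ach00g326791.1 at 2387 and 3152 CPM in inner pericarp stand far below its outer pericarp points at 13684 and 14601 CPM.

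Coding length changed the order of these genes but not the leading pair. Counts divided by coding length and scaled to 1000000 per library (a level per kilobase) put Ach17g277251.1 first, at a mean of 77643, and Ach04g305291.1 second, at 70170. Ranks 3 to 5 went to members with coding lengths of 195, 258 and 240 bases, which by counts ranked 12, 13 and 15. The 10 highest gene models per kilobase were all among the 190, and 6 of them were among the 10 with the most counts. Of the 190 gene models highest per kilobase, 132 were members. The lowest member by this measure ranked 2552. The coding lengths of the 190 ran from 195 to 13122 bases with a median of 1191 bases, close to the median of 1164 bases over the 18359 gene models tested. Under 500 bases were 14.7% of the 190 and 12.1% of those tested, and 2000 bases or more were 14.7% and 19.6%. The reads of untranslated ends cannot be placed from this table, so a value per kilobase of a very short gene model is uncertain.

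Tissue differences were frequent among the 190 but mostly small. The test of inner against outer pericarp was fitted over all gene models and did not enter the selection, which used the mean of the 4 libraries. Called higher in inner pericarp were 67 of the 190 (35.3%), against 8.56% of the gene models tested, and called higher in outer pericarp were 38 (20%), against 9.36% (edgeR quasi-likelihood test, adjusted p under 0.05). In both directions together, 105 were called (55.3%), against 17.9% of all tested. High counts give the test more power, so these shares are not comparable like for like. Over the 190 the median absolute log2 fold change was 0.34, against 0.28 over all tested gene models, and the median log2 fold change was 0.10 against -0.01. Of the 18359 gene models tested 7333 had 20 CPM or more, so these medians are not comparable like for like either. On the scale of CPM with TMM factors, inner and outer libraries were fully separated in 155 of the 190 (81.6%), against 58.2% of all tested. All 105 called gene models were among these 155. In CPM without those factors the libraries of some of the 155 overlapped.

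Leaving out either inner pericarp library lowered both counts of calls by more than 1.5 times, and leaving out outer pericarp replicate 2 raised the count toward outer pericarp by more than 1.5 times. Dropping inner pericarp replicate 1 left 38 calls toward inner and 20 toward outer pericarp, and dropping its replicate 2 left 32 and 20, while the share called of all gene models tested fell from 17.9% to 7.54% and 6.66%. Dropping outer pericarp replicate 1 gave 99 and 51 calls, and dropping its replicate 2 gave 80 and 62, with 21.6% and 17.8% of all tested called. A fit without 1 library leaves a single sample in a tissue, which is assumed to vary like the pair of the other tissue. In all 4 of these fits as well as with all libraries, 29 gene models were called higher in inner pericarp and 20 higher in outer pericarp. The share of all gene models tested that was called in all of these fits is not given, so nothing is read from these counts. Among the 105 called gene models the fitted direction changed in none of the alternative fits.

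Most differences were under 2-fold. A called fold of 2 or more toward inner pericarp was found for 11 of the 190, against 2.91% of all tested. A called fold of that size toward outer pericarp was found for 10, against 3.32% of all tested. Some of these met the 500 CPM rule only through the tissue where they were high, so nothing is read from these counts. In the other 169 gene models the fitted difference was under 2-fold. The median fold was 1.51 among the 67 higher in inner pericarp and 1.58 among the 38 higher in outer pericarp. By abundance, 36 and 17 of the 110 with 500 to 1000 CPM were called toward inner and toward outer pericarp. The numbers were 17 and 11 of 45 at 1000 to 2000 CPM, and 14 and 10 of 35 at 2000 CPM or more. The median absolute log2 fold change in these classes was 0.31, 0.38 and 0.49.

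**Figure D3:**
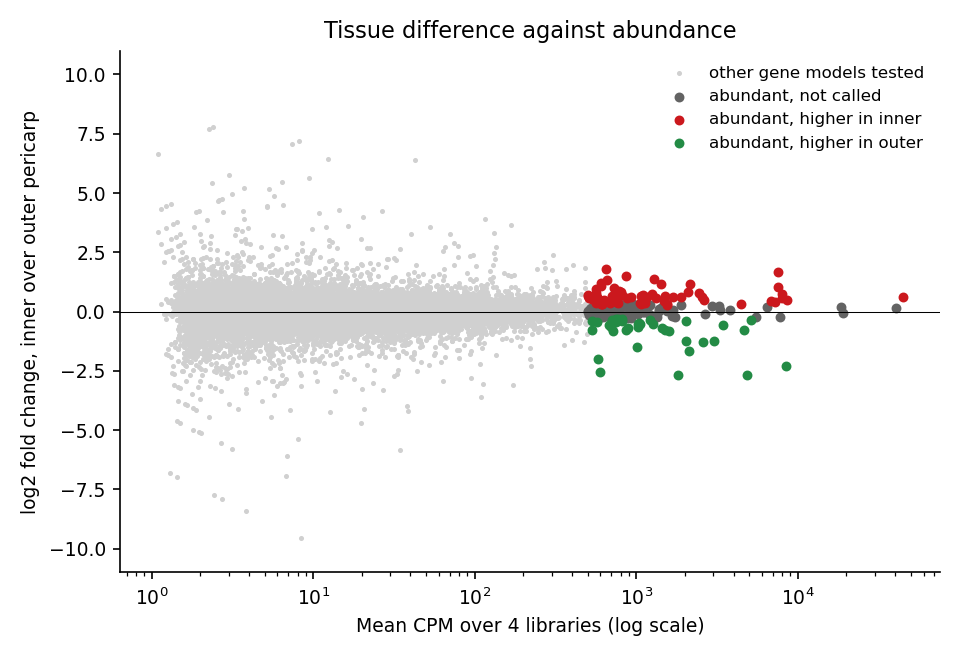
Log2 fold change, inner over outer pericarp, against mean CPM over 4 libraries (log axis), 1 point for each gene model tested. Coloured points are the 190 abundant gene models; those called lie between -2.68 and 1.79, and the 5 lowest are all higher in outer pericarp.

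The called gene models also moved a sizeable part of the library. The 67 higher in inner pericarp held 19.3% and 19.6% of the counts there and 13.1% and 12.3% in outer pericarp. The 38 higher in outer pericarp held 3.97% and 4.08% of the counts in inner and 8.68% and 8.98% in outer pericarp. The 85 gene models not called took 17.6% and 17.8% in the inner libraries against 19.3% and 16.3% in the outer ones. These sets were chosen by the same libraries' calls, so their shares are a description.

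The largest differences were toward outer pericarp. A difference of at least 4-fold was called in 5 of the 190, against 1.75% of all tested gene models in either direction, and all 5 were higher in outer pericarp. For 3 of them the inner pericarp mean was under 500 CPM, so they met the 500 CPM rule only through the tissue where they were high, and nothing is read from this count. They are named here after their values were seen. Ach20g404181.2 (group 20, 1434 bases) was at 390.4 and 551.4 CPM in inner and 3401 and 2902 CPM in outer pericarp. The fit gave a log2 fold change of -2.68 ± 0.16 (SE; edgeR adjusted p = 4.4e-08). It went from rank 266 and 178 in the inner pericarp libraries to 24 and 27 in the outer ones. Ach00g385221.2 (group 00, 936 bases) was at 1049 and 1503 CPM in inner and 8532 and 8251 CPM in outer pericarp (log2 fold change -2.65 ± 0.15 SE, edgeR adjusted p = 2.84e-08), which placed it at rank 7 and 6 in outer pericarp.

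Ach25g336081.2 (group 25, 228 bases) was at 139.7 and 195.7 CPM in inner and 1018 and 1017 CPM in outer pericarp (log2 fold change -2.54 ± 0.14 SE, edgeR adjusted p = 2.75e-08). Its rank moved from 998 and 632 in the inner libraries to 74 and 78 in the outer ones, and it reached 500 CPM in outer pericarp only. Ach23g267911.2 (group 23, 1578 bases) was at 236.2 and 207.1 CPM in inner and 776.7 and 1101 CPM in outer pericarp (log2 fold change -2.01 ± 0.13 SE, edgeR adjusted p = 9.12e-08). The fifth is Ach00g326791.1, described above. Each of the 5 was called in all 16 fits, and 4 rather than 5 gene models passed 4-fold in 3 of these: without inner pericarp replicate 2, without outer pericarp replicate 2, and with the length trend removed. The 5 together took 0.42% and 0.561% of the counts in inner and 2.74% and 2.79% in outer pericarp. They were chosen by their difference in these same libraries, so this share is a description.

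In the other direction the largest differences were smaller. Ach13g349471.2 (group 13, 1212 bases) was at 1009 and 997.2 CPM in inner and 344.7 and 259.4 CPM in outer pericarp, with a log2 fold change of 1.79 ± 0.14 (SE; edgeR adjusted p = 6.37e-07). Its rank was 80 and 79 in the inner and 304 and 447 in the outer pericarp libraries. It was under 500 CPM in both outer pericarp libraries, so it met the 500 CPM rule only through inner pericarp, where it was high. Its difference passed 4-fold, at a log2 fold change of 2.08, without outer pericarp replicate 1. With no low-count filter its call was lost (log2 fold change 1.80, edgeR adjusted p = 0.054). Ach11g125831.1 (group 11, 1137 bases) was at 11273 and 11466 CPM in inner and 3542 and 3885 CPM in outer pericarp, with a log2 fold change of 1.68 ± 0.094 (SE; edgeR adjusted p = 2.84e-08). It ranked 5 in both inner pericarp libraries and 23 and 22 in the outer ones, and it was called in every fit.

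**Figure D4:**
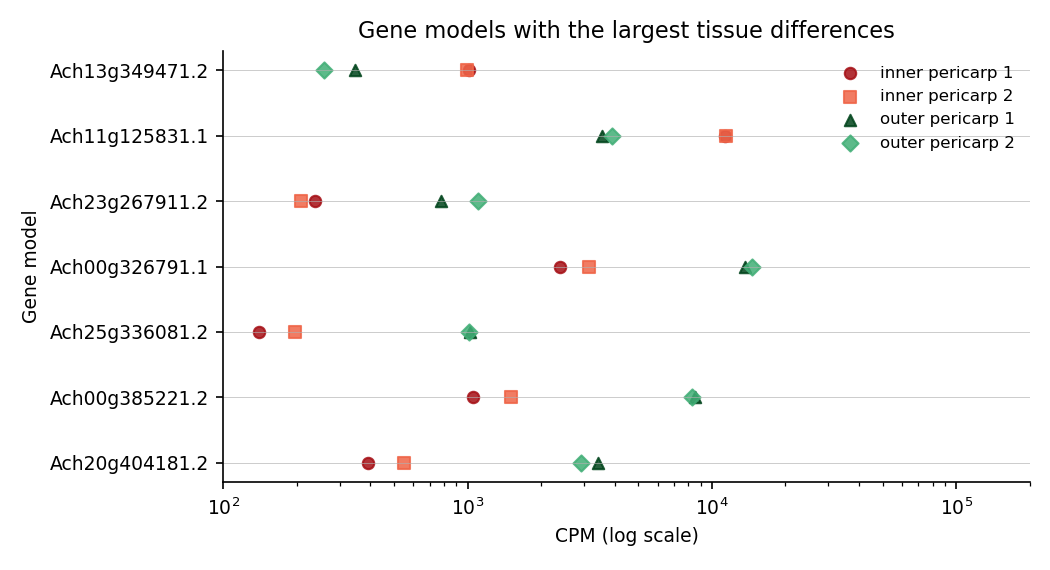
CPM (log axis) of the 5 abundant gene models at least 4-fold higher in outer pericarp and of the 2 with the largest fold toward inner pericarp, 1 point for each library. In 4 of the 5 the inner pericarp replicate 2 point lies to the right of replicate 1, as at 390.4 and 551.4 CPM for Ach20g404181.2.

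Of these 5 gene models, 4 were also the ones that differed most between the inner pericarp libraries. On the scale of CPM with TMM factors, the log2 ratio of inner pericarp replicate 1 over replicate 2 was -0.54 for Ach00g385221.2, -0.52 for Ach20g404181.2, -0.51 for Ach25g336081.2 and -0.43 for Ach00g326791.1. These are the only 4 of the 190 past 0.25 in size, and each was higher in inner pericarp replicate 2. Ach23g267911.2 went the other way, at 0.17. The median absolute log2 ratio of the inner pair over all 190 was 0.04. In the outer pair the same 4 gene models differed by 0.17, 0.35, 0.12 and 0.02. Inner pericarp replicate 2 is also the inner library that holds counts of Ach00g022471.2; its part in these differences was not tested.

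The outer pericarp libraries differed from each other more than the inner ones did, and the difference ran with coding length. The median absolute log2 ratio was 0.17 in the outer pair and 0.04 in the inner pair over the 190, and 0.17 and 0.09 over the 7333 tested gene models at 20 CPM or more. The outer pair's ratio was larger in size than that of the inner pair in 166 of the 190. It was larger than the fitted tissue difference itself in 52 of the 190. In 29 the inner pericarp mean was higher than 1 outer pericarp library and lower than the other; none of these was called. Of the 28 gene models with a coding length under 500 bases, 27 were higher in outer pericarp replicate 1 than in replicate 2, with a median log2 ratio of 0.36. Of the 28 with 2000 bases or more, 7 were, with a median of -0.08. The medians were 0.21 for the 47 gene models of 500 to 1000 bases and 0.08 for the 87 of 1000 to 2000 bases. In the inner pair the medians ran from -0.04 for the shortest to 0.00 for the longest class. Across the 190 gene models, which share these libraries and their depth, Spearman's rho of coding length with the outer pair's log2 ratio was -0.67, and with the inner pair's it was 0.26. Over the 7333 tested gene models at 20 CPM or more it was -0.523 for the outer pair.

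**Figure D5:**
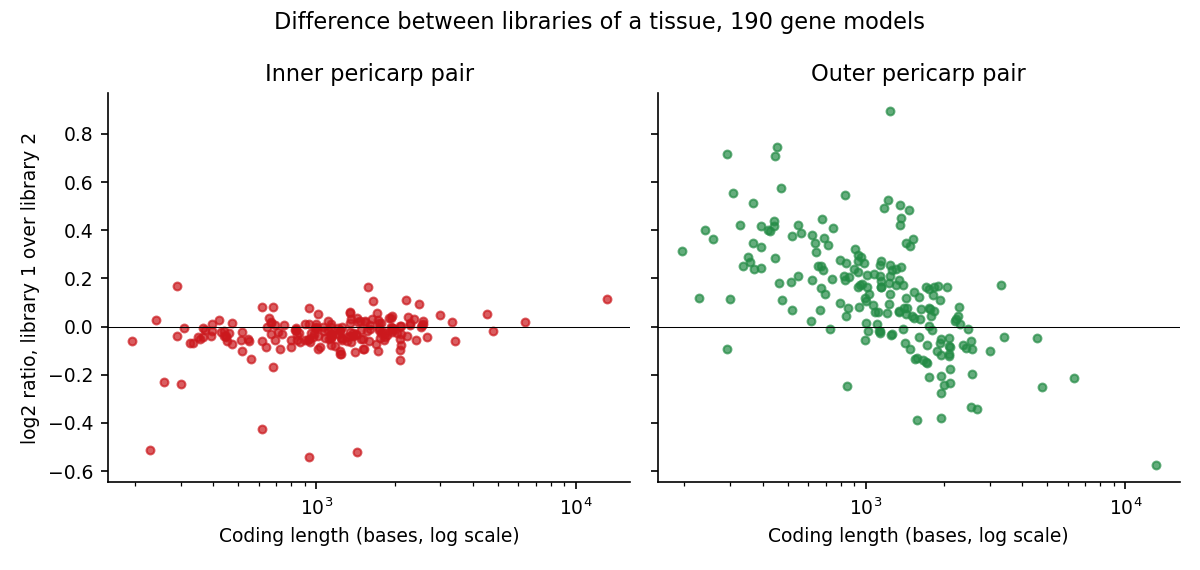
Log2 ratio of library 1 over library 2 against coding length (bases, log axis) for the 190 abundant gene models, in the inner pericarp pair and in the outer pericarp pair. The inner pair stays near 0, and the outer pair falls from a median of 0.36 under 500 bases to -0.08 at 2000 bases or more.

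Calls by coding length moved with the outer pericarp library used, in short and in longer classes. Gene models under 500 bases took 8.18% and 8.41% of an inner pericarp library against 9.17% and 6.89% of an outer one, so the outer pericarp libraries lay on either side of the inner ones. With all libraries 10 of the 28 were called toward inner and 4 toward outer pericarp. Dropping outer pericarp replicate 1 gave 19 and 3, and dropping its replicate 2 gave 10 and 9. After the length trend of every library had been taken out they were 11 and 4. Among the 87 of 1000 to 2000 bases, 28 and 18 were called with all libraries, 40 and 27 when the first outer pericarp library was dropped, and 34 and 33 when the second was. Among the 28 gene models of 2000 bases or more, 8 and 5 were called with all libraries, 11 and 8 when the first outer pericarp library was dropped, and 14 and 7 when the second was. Among the 47 gene models of 500 to 1000 bases, 21 and 11 were called with all libraries. The share called of all gene models tested in each length class is not given, so nothing about coding length is read from these counts. The part of coding length in the tissue calls was not tested beyond these fits.

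The 190 gene models were spread over all 30 identifier groups. Group 00 held 28 of them, 0.868% of the 3226 gene models tested in that group. All 190 made up 1.03% of the gene models tested, from 0.306% in group 22 to 1.92% in group 14. In 3 pairs the identifiers followed each other directly. Ach17g064441.2 and Ach17g064451.2 (1002 and 939 bases) were both higher in outer pericarp, at 1473 and 1456 against 3557 and 3822 CPM for the first and 1782 and 1739 against 4260 and 4365 CPM for the second. Their log2 fold changes were -1.27 ± 0.092 and -1.23 ± 0.093 (SE; edgeR adjusted p = 3.45e-07 and 5.35e-07). Their counts, first over second, stood in a ratio of 0.827 and 0.837 in inner and 0.835 and 0.876 in outer pericarp, a range of 0.827 to 0.876.

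The other 2 pairs were not called. Ach01g307911.2 and Ach01g307921.2 (843 and 1431 bases) had log2 fold changes of -0.08 and -0.09 (edgeR adjusted p = 0.645 and 0.542), and count ratios of 0.337 and 0.359 in inner and 0.31 and 0.382 in outer pericarp. Ach24g103561.1 and Ach24g103571.1 (336 and 372 bases) had log2 fold changes of 0.03 and 0.06 (edgeR adjusted p = 0.858 and 0.717), and count ratios of 0.557 and 0.579 in inner and 0.582 and 0.577 in outer pericarp. In 3 of these 4 the sign followed the outer pericarp library left out. Without outer pericarp replicate 1, Ach01g307911.2 was at -0.19, Ach24g103561.1 at 0.17 and Ach24g103571.1 at 0.19. Without outer pericarp replicate 2 these 3 were at 0.05, -0.09 and -0.05. How the counting treated reads that fit several gene copies is not given in the sources used here, so values of neighbouring gene models that may be copies are uncertain.

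The order of abundance in the tissues was similar but not the same. Across the 190, Spearman's rho between the inner and the outer pericarp mean CPM was 0.732; the same libraries chose the gene models, so this is a description. Of the 190, 178 were among the 190 gene models highest in inner pericarp and 176 among the 190 highest in outer pericarp, and 164 were in both. The first 10 of the inner pericarp libraries shared 9 gene models, those of the outer pericarp libraries shared 8, and 5 were in the first 10 of all 4 libraries.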

How the data were processed

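RNA-seq (Illumina HiSeq 2000, per the labels' protocols) was made from 2 inner and 2 outer pericarp samples. The deposited table holds raw read counts per gene model, per the file headers, and a coding length, a multiple of 3 in 100% of gene models. No aligner, counting program, build or annotation is named in the sources at hand; the submitters' processing notes list DESeq without saying what it was used for.

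Ach00g022471.2 was removed before anything else. CPM and shares used library totals without it. Tissues were compared with edgeR 4.0.16 (R 4.3.3; filterByExpr, TMM factors, glmQLFit and glmQLFTest, tissue as the only term, all 4 libraries). Of 39760 gene models 18359 were tested, with Benjamini-Hochberg adjustment over all of them. Fold changes are inner over outer pericarp; standard errors came from the F statistic. Fold changes, pair ratios and the counts of separated gene models use TMM factors, and printed CPM do not. The code was tested on simulated counts with the same relative spread for all gene models and libraries. These lack the wider difference of the outer pair and its course with coding length, so nothing about the results is read from them.

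Named are the 10 most abundant gene models, the 2 called with the largest fold in each direction, those at the threshold and 3 neighbouring pairs (running numbers, without their last digit, that follow each other). The members, lists and tests were chosen with earlier results of these data known. Gene lists by name were not used, since identifiers have none. Alternatives were other scalings, filters and thresholds, DESeq2 1.42.0, limma-voom (limma 3.58.1), robust empirical Bayes, Ach00g022471.2 kept, inner libraries summed, length trend removed (lowess, span 0.3) and each library left out. Shares were tested with SciPy 1.17.1.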

Additional observations from a re-analysis of the deposited data

How the results depend on the processing

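As reported, 67 and 38 of the 190 gene models were called higher in inner and in outer pericarp. The numbers were 39 and 20 with both inner pericarp libraries added into 1 sample, 18 and 16 with no low-count filter (7.73% and 1.2% of all tested called in these fits, against 17.9%), 11 and 10 at 2-fold or more, and 32 to 99 and 20 to 62 when each library was left out in turn. DESeq2 called 58 and 32, with 8.77% of all tested called. Under the other fits the counts stayed within 1.5 times of those reported, and library totals lowered the share of calls toward inner pericarp from 63.8% to 57.0%. Of the called gene models, 17 and 16 were called in the same direction in all 16 fits. The share of all gene models tested that was called in all 16 fits is not given, so nothing is read from these counts. The cause of the changes between fits was not tested. A fit with 1 library left out, or with the inner pair summed, takes its spread from 1 pair. Leaving out 1 outer pericarp library gave 2 of the 23 gene models followed through the fits a call of opposite sign to their value with all libraries, Ach17g277251.1 (0.56 without replicate 1, -0.19 without replicate 2) and Ach17g051441.2 (0.47 and -0.43). It also turned the sign, with no call, of Ach07g340321.2, Ach01g307911.2, Ach24g103561.1 and Ach24g103571.1. The members' share of counts in inner and outer pericarp was 38.5% and 34.0% of totals with Ach00g022471.2 (4.54 points apart), 33.5% and 32.0% for the 80 gene models at 1000 CPM, 50.5% and 48.3% for the 456 at 250 CPM, and 48.8% and 47.0% per kilobase. For the first 10 it was 17.0% and 13.9% with Ach00g022471.2 in the totals (3.12 points apart), and 22.7% and 20.5% per kilobase. Leaving out libraries gave 189 to 194 gene models at 500 CPM. The counts by coding length without each outer pericarp library, and the fits of the 5 gene models past 4-fold, were chosen after seeing the data. No paired analysis was possible because the labels give no replicate number. With 2 libraries a tissue, the smallest p of an exact permutation test of a share was 0.333.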
